A study of Homo sapiens with 4 samples.

Results

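Carbonic anhydrases are zinc enzymes that turn carbon dioxide and water into bicarbonate and a proton, and so set the pH on either side of a membrane. CA2 and CA13 work in the cytosol and CA5B in mitochondria. CA4 is anchored to the outer face of the plasma membrane, and CA9, CA12 and CA14 span it with the catalytic domain outside. CA8 and CA11 keep the fold but have lost the catalytic activity. In epithelia that respond to estrogen, CA12 is known as a target of the estrogen receptor through a distal enhancer, and CA9 is known as a target of the hypoxia-inducible factors.

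The 9 genes CA2, CA4, CA5B, CA8, CA9, CA11, CA12, CA13 and CA14 were taken by symbol from a table of 26364 gene symbols. The group was chosen by name and on measured values: the level of CA12, higher with estradiol (E2), was part of the choice. Changes with E2 are therefore given for the members as a description. Where a fit over all genes calls members with E2, the count stands beside the share of all genes called, and nothing is read from it. The other 6 carbonic anhydrase genes of the table are CA1, CA3, CA5A, CA6, CA7 and CA10.

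RNA was sequenced from Ishikawa cells, a human endometrial adenocarcinoma line, that carry the Y537S change of ESR1, the gene of estrogen receptor alpha. Every library came from mutant cells. Cells kept in medium stripped of hormones received 0.1% DMSO as vehicle or 10 nM E2 for 8 h. The labels number 2 clones of the mutant line, each with 1 DMSO and 1 E2 library, and the columns carry the tags A4 and B212, which no label links to a clone number. Libraries are named here by tag and treatment. Nothing says that libraries came from separate cultures beyond the clones. P-values rest on these 4 libraries and on a spread estimated in part over all genes. They do not measure the spread between replicate cultures of a clone.

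The libraries held 71575816 to 85222856 counts and 18358 to 18861 detected genes. ESR1, whose point mutation gene counts cannot check, had 86.5 to 109.9 CPM, the usual count per sequencing depth, with library sizes scaled between samples. All 10 markers of endometrial epithelium had at least 10 counts in every library, with a sum of 2356 to 3228 CPM. Markers of endothelium summed to 2.30 to 5.11 CPM with PECAM1 at 0 and those of leukocytes to 1.91 to 3.03 CPM with CD3E at 0. Erythroid cells are rich in CA1 and CA2. Their 5 markers summed to 0.0683 and 0.0703 CPM in DMSO and to 0.305 and 0.246 CPM in E2, with at most 11 counts for a gene in a library and HBB and ALAS2 under 10 throughout. Stromal markers summed to 97.2 and 133.9 CPM in A4 against 36.4 and 44.3 CPM in B212, nearly all of it COL1A1, and DCN and LUM stayed under 10 counts in every library. The part of stromal cells in the differences between tags, and of erythroid cells in those with E2, was not tested.

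Upstream sequence is shown for CA12, the member that the E2 response singled out, and for CA9, a membrane member with at most 4 counts in a library. The RefSeq promoter table (GRCh38.p14) held 4 of the 9 members, CA5B, CA9, CA12 and CA14. Each sequence is the 250 bases before the gene start, 5′ to 3′ on the gene's strand. Capitals mark GGTCA, which is an arm of the estrogen response element, and ACGTG, the core of the hypoxia response element, each on either strand.
CA12, chr15:63381847-63382096, minus strand: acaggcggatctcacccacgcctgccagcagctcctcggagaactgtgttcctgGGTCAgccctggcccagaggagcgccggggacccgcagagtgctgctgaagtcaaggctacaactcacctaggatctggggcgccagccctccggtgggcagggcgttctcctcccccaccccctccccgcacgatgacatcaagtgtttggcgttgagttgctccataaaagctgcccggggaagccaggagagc
CA9, chr9:35673678-35673927, plus strand: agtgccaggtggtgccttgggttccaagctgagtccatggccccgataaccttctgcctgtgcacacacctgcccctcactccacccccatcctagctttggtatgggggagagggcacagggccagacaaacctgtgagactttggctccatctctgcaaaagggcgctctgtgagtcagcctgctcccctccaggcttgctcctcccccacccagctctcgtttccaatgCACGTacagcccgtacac

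The CA12 window held 1 GGTCA, 191 bases from the gene start, and CA14 and CA5B also held 1 each. Of all 35116 promoters in the table, 32.6% held at least 1 in the same window. The full element, GGTCA and TGACC with 3 bases between them, was in none of the 4 windows and in 0.0399% of all promoters. ACGTG was found in the CA9 window alone, 13 bases from the gene start, and in 18.5% of all promoters. These windows lie near the gene start and do not cover distal enhancers.

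By CPM, with no correction for transcript length, CA2 and CA12 held most of the family's counts. The transcript used for CA12 has 6413 bases and that for CA2 1717, so their CPM shares also depend on length. Summed over all 15 carbonic anhydrase genes, expression was 222.0 CPM (DMSO) and 304.7 CPM (E2) in A4, and 129.0 and 188.7 CPM in B212. CA2 and CA12 together made up 79.0% to 90.3% of that sum in a library. CA2 alone took 57.3% to 71.6%.

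Per kilobase of the longest coding transcript, CA2 averaged 80.3 ± 35.4 CPM and CA12 7.01 ± 1.91 CPM (SD over the 4 libraries). The 4 libraries differ in tag and treatment, so the SD includes these differences and is not a spread between replicates. CA2 stood 9.49 to 14.3 times above CA12 within a library, or 3.46 to 5.22 times per kilobase of coding sequence. CA11 followed at 2.16 to 3.30, CA8 at 1.41 to 2.08, CA5B at 1.39 to 1.62, CA13 at 1.01 to 1.37 and CA14 at 0.446 to 0.619 CPM per kilobase. The ranges of CA8 and CA5B overlapped, although CA8 was above CA5B within each of the 4 libraries, while those of CA11 and CA8 and those of CA5B and CA13 came close without touching. With coding length the order below CA12 was CA5B, CA8, CA13, CA11 and CA14, so only the places of CA2, CA12, CA8 and CA14 were the same under both lengths. Among 14584 tested genes with a length, CA2 ranked 796 and CA12 6992.

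Of the membrane-bound enzymes, CA4 had 0 counts in all 4 libraries, which allows at most 0.0352 to 0.0410 CPM by counting error alone. CA9 had 1 and 0 counts in A4 (DMSO and E2) and 0 and 4 in B212. CA9 and CA4 fell under the count filter, so 7 of the 9 members were tested. Of the carbonic anhydrase genes outside the group, CA10 had 0 counts throughout, CA1 and CA6 had at most 2 in a library, CA5A had 1 to 16, CA7 6 to 20 and CA3 21 to 36.

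**Figure D1:**
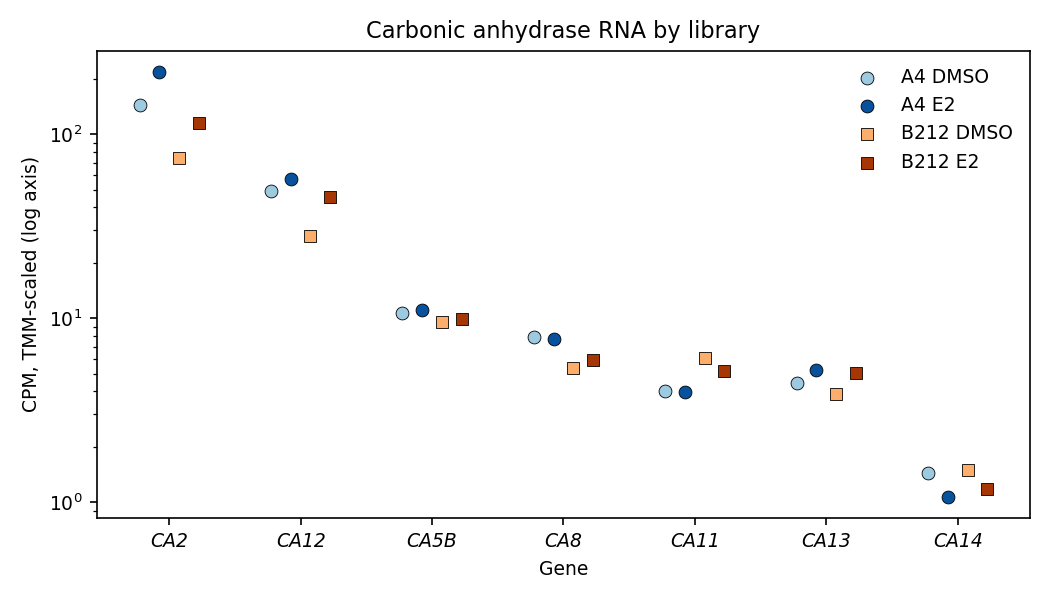
CPM (log axis) of the 7 tested members, with 1 point per library, circles for A4 and squares for B212, light for DMSO and dark for E2. CA2 lies between 73.9 and 218 CPM, above CA12 in each library.

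The study's comparison asked what E2 does to gene expression in cells with the mutant receptor. CA2, the main cytosolic enzyme, was 1.52 times as high with E2 in A4 and 1.56 times in B212. CA12, the membrane enzyme, was 1.15 times as high in A4 and 1.62 times in B212. Of the 7 members tested, 4 were higher with E2 in both tags, 2 were lower in both and CA8 went opposite ways, by sign alone. Intervals for counting error included 0 for CA5B and CA8 in both tags, for CA11 in A4 and for CA14 in B212. Over all 15599 tested genes, 33.3% were higher in both and 36.8% lower in both. The members were chosen in part on this contrast, so nothing is read from these counts.

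In A4, CA2 stood at 143.7 CPM with vehicle and 218.1 CPM with E2, against 73.9 and 115.5 CPM in B212. Both tags moved up by nearly the same factor, yet the treatment groups overlapped, since B212 with E2 stayed below A4 with vehicle. Its log2 ratios were 0.60 in A4 (95% counting interval 0.57 to 0.64) and 0.64 in B212 (0.60 to 0.69). The difference between them, 0.042, had a counting interval of -0.017 to 0.10. Such intervals cover counting error only.

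In A4, CA12 stood at 49.3 CPM with vehicle and 56.9 CPM with E2, against 28.0 and 45.5 CPM in B212. The groups overlapped here too, and the tag with the lower vehicle level showed the larger change. The log2 ratios were 0.21 (0.14 to 0.27) in A4 and 0.70 (0.62 to 0.77) in B212. They differed by 0.49, with a counting interval of 0.39 to 0.59. Each tag had 1 library per treatment, so the difference was not tested against the spread between replicates.

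**Figure D2:**
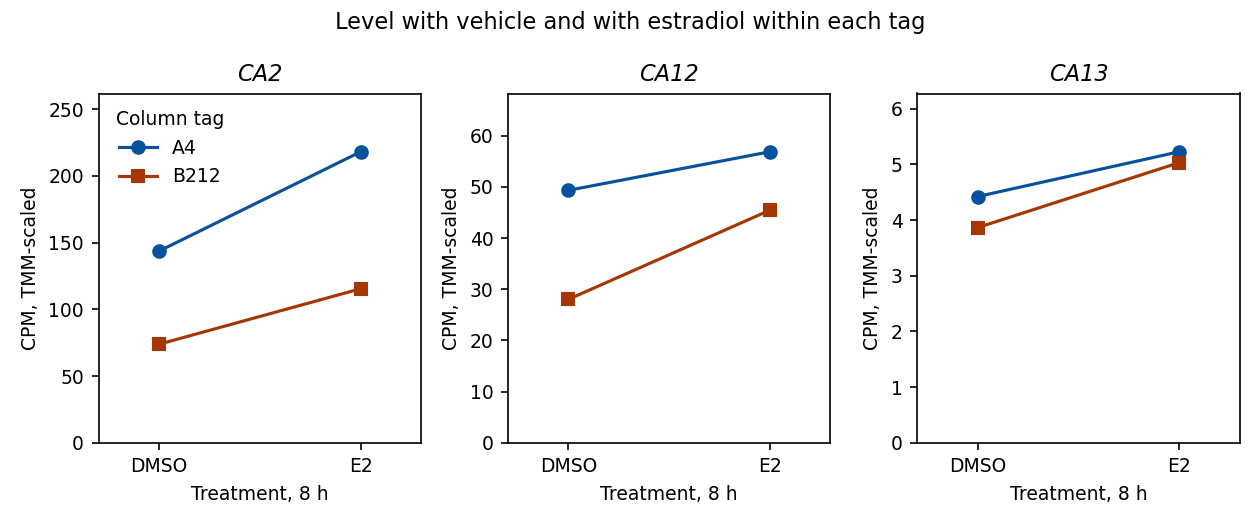
CPM of CA2, CA12 and CA13 with DMSO and with E2, with 1 line per tag and an axis from 0. The CA2 lines keep apart, at 1.94-fold in DMSO and 1.89-fold in E2, while the CA12 lines draw closer, from 1.76-fold to 1.25-fold.

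CA13, a cytosolic enzyme related to CA2, had 4.42 and 5.23 CPM in A4 and 3.87 and 5.03 CPM in B212 (DMSO and E2). It was the only tested member besides CA2 and CA12 with counting intervals above 0 in both tags, at log2 ratios of 0.24 (0.030 to 0.45) and 0.38 (0.16 to 0.60). Both E2 libraries of CA13 were above both DMSO libraries. CA5B, the mitochondrial enzyme, was close to level, at 10.6 and 11.1 CPM in A4 and 9.49 and 9.85 CPM in B212. CA5B has an antisense neighbour, INE2, over 22% of its exon bases. INE2 had 0 counts in every library, but its 1874 bases lie within CA5B exons and the strand setting is unknown. The 0 therefore cannot show whether antisense reads were present.

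CA14 was the membrane member that ran the other way. It had 1.45 and 1.07 CPM in A4 and 1.49 and 1.17 CPM in B212, so both E2 libraries lay below both DMSO libraries. With 86 to 127 counts per library, its log2 ratios of -0.43 and -0.34 had wide counting intervals, -0.86 to -0.011 and -0.76 to 0.063. CA11, acatalytic and secreted, had 4.04 and 3.97 CPM in A4 and 6.08 and 5.18 CPM in B212. Its log2 ratios were -0.024 (-0.26 to 0.21) in A4 and -0.23 (-0.42 to -0.037) in B212. CA8, the acatalytic protein that binds the inositol trisphosphate receptor ITPR1, had 7.92 and 7.75 CPM in A4 and 5.39 and 5.91 CPM in B212.

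**Figure D3:**
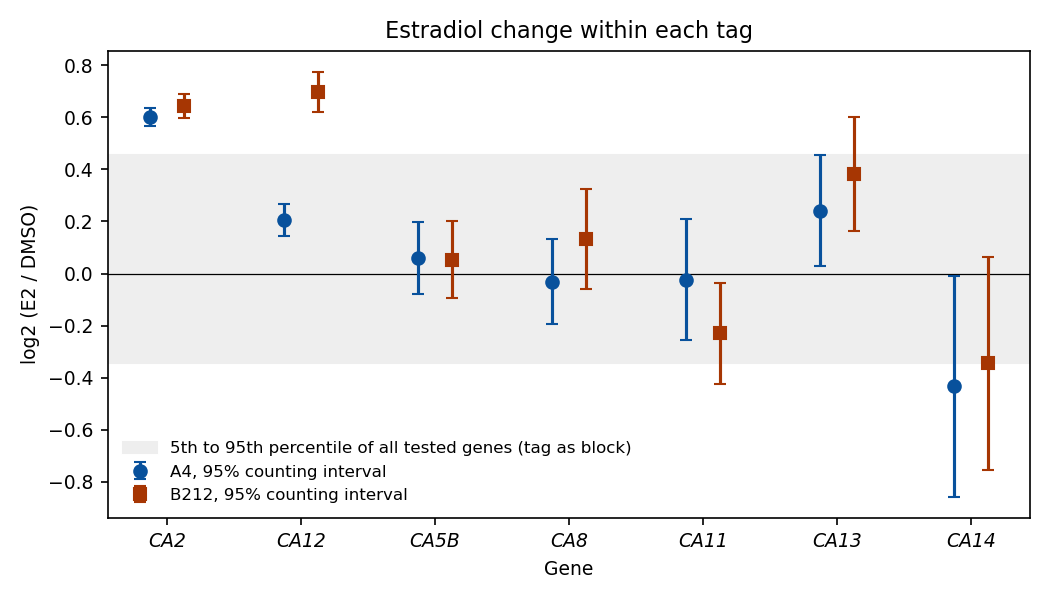
Log2 ratio of E2 to DMSO within A4 (circles) and B212 (squares) for the 7 tested members, with 95% counting intervals, over a grey band from the 5th to the 95th percentile of all tested genes (-0.34 to 0.45, tag as a block). CA2 lies above the band in both tags and CA12 in B212. CA14 lies below it in A4 and at its lower edge in B212. The band comes from fits over both tags, the points from single library pairs.

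Without a block, 0 of the 7 members and 0% of all genes passed edgeR's quasi-likelihood test at a Benjamini-Hochberg adjusted p of 0.05, and 150 genes had an unadjusted p below 0.05. DESeq2 called 1 gene. Fits without the block count differences between the tags as spread within a treatment group. In edgeR the common coefficient of variation between libraries was 32.2% without the block and 5.99% with it. The count of 0 therefore does not show that E2 left genes unchanged. Once the tag entered as a block, 2 members passed, CA2 and CA12, both higher, where 9.56% of all genes were called and 6.13% were called higher. The fitted log2 fold changes with the block were 0.62 ± 0.069 (SE) for CA2 and 0.45 ± 0.094 for CA12. This contrast helped to choose the group, so these calls and values are no evidence about the members. The block rests on the tags in the column names.

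B212 was compared with A4 with treatment as a covariate. The rule that chose the members did not use this contrast, but earlier results of these data were known when the choice was made. CA2, CA12 and CA8 were lower in B212 and CA11 was higher. Of the 7 tested members 4 were called by edgeR's quasi-likelihood test at a Benjamini-Hochberg adjusted p under 0.05, where 51.0% of all genes were called, so the share of members was near the background. Lower calls numbered 3 members, where 25.8% of all genes were called lower.

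CA2 differed most, with a log2 fold change of -0.94 ± 0.069 (SE) and an edgeR adjusted p of 7.30e-10. A4 stood 1.94 times above B212 in DMSO and 1.89 times in E2, and both A4 libraries were above both B212 libraries. The log2 fold change of CA12 was -0.57 ± 0.094, with an edgeR adjusted p of 4.80e-05. Here A4 stood 1.76 times above B212 in DMSO and 1.25 times in E2. Leaving out a DMSO library, of A4 or of B212, took the CA12 value to -0.33, and with no treatment term its edgeR adjusted p was 0.104.

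The acatalytic members went in opposite directions between the tags. CA8 had 5.39 and 5.91 CPM in B212 against 7.75 and 7.92 CPM in A4, with no overlap. Its log2 fold change was -0.47 ± 0.12, with an edgeR adjusted p of 0.00195. CA11 was higher in both B212 libraries than in both A4 libraries, by 0.49 ± 0.13 on the log2 scale, with an edgeR adjusted p of 0.00358. DESeq2 gave CA11 an adjusted p of 0.0614.

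CA5B, CA13 and CA14 were not called between the tags. Their log2 fold changes were -0.17 ± 0.10, -0.12 ± 0.13 and 0.082 ± 0.21, and their edgeR adjusted p-values 0.183, 0.448 and 0.767. After removal of a trend on length and GC, CA5B passed at -0.25, with an edgeR adjusted p of 0.0270. Its pseudogene neighbour CA5BP1, which shares 2.98% of the 32-base words of CA5B, was lower in B212 by -0.41 ± 0.13 (edgeR adjusted p of 0.00930).

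**Figure D4:**
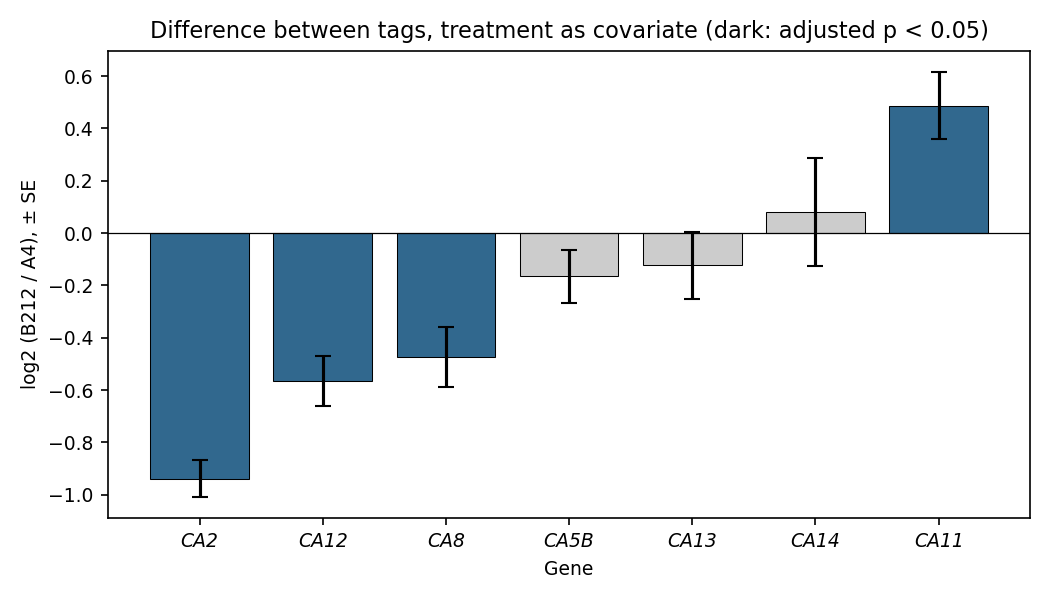
Log2 fold change of B212 over A4 with treatment as a covariate for the 7 tested members, with bars from 0 and whiskers of 1 SE. Dark bars passed an adjusted p of 0.05 in edgeR: CA2, CA12 and CA8 below 0 and CA11 above.

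Genes that act with the carbonic anhydrases were described by lists, with members left out. Bicarbonate transporters move the product of the enzymes across membranes. Of 20 listed, 13 were tested. With E2 and the tag as a block 0 were called, where 9.56% of all genes were called. Their median log2 fold change was -0.093 against -0.0081 over all genes. Between the tags 7 of 13 were called, 3 higher and 4 lower in B212, a share (53.8%) near the 51.0% of all genes. SLC26A7, an anion exchanger, had 9.38 and 10.2 CPM in A4 and 31.5 and 26.1 CPM in B212, and SLC4A2, the chloride-bicarbonate exchanger AE2, was higher by 0.51. SLC26A2, a sulfate transporter, was lower by -0.80 and SLC4A8, a sodium-driven exchanger, by -1.75 on the log2 scale.

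Proton exporters handle the other product. Of 17 listed, 16 were tested. With E2 and the tag as a block 1 was called (6.25%, against 9.56% of all genes). This was SLC16A3, the lactate and proton carrier MCT4. It had 38.3 and 46.3 CPM in A4 and 37.1 and 53.5 CPM in B212, so both E2 libraries were above both DMSO libraries, with a log2 fold change of 0.40 ± 0.081 and an edgeR adjusted p of 0.00561. With no block it was not called. Between the tags 9 of 16 were called, 5 higher and 4 lower in B212, which also is near the 51.0% of all genes. The sodium-proton exchanger SLC9A3 was higher, with 35 and 41 counts in A4 against 457 and 586 in B212, and SLC9A3R1, its scaffold protein, was higher by 0.52. EMB, an ancillary protein of monocarboxylate carriers, was lower by -2.61 on the log2 scale.

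All 10 enzymes on the list of those that use or sense bicarbonate were tested. With E2 and the tag as a block, 2 were called (20%), where 9.56% of all genes were called. PCCA, a propionyl-CoA carboxylase subunit, was higher by 0.28 ± 0.083 (edgeR adjusted p of 0.0387). PC, pyruvate carboxylase, was lower by -0.38 ± 0.084 (edgeR adjusted p of 0.00856). Between the tags 5 of 10 were called, against 51.0% of all genes. CPS1, carbamoyl phosphate synthetase, was higher in B212 by 2.41 and PC by 0.40, and CAD was lower by -0.38 and PCCB by -0.30. Of 6 binding partners of the acatalytic members, 3 were tested, all of them inositol trisphosphate receptors. ITPR1 had 1.41 and 1.39 CPM in A4 and 4.77 and 5.05 CPM in B212, the direction opposite to CA8, and ITPR2 was higher by 0.48 and ITPR3 lower by -0.46. None of the 3 was called with E2 and the tag as a block, where 9.56% of all genes were called.

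Hypoxia-inducible genes were listed because CA9 belongs to them. Of the 28 listed symbols present in the data, 27 passed the count filter, while CA9 had at most 4 counts in a library. Hypoxia signalling was not tested. SLC2A1, the glucose transporter GLUT1, had 323 and 359 CPM in A4 and 103 and 116 CPM in B212. Of 27 tested, 4 were called higher and 0 lower with E2 and the tag as a block, among them BNIP3 (0.42) and FAM162A (0.40). That is 14.8% of the list, where 6.13% of all genes were called higher and 9.56% in either direction. Between the tags 16 were called (59.3%, against 51.0% of all genes), 4 higher, such as BNIP3 (0.68) and NDRG1 (0.86), and 12 lower in B212, such as SLC2A1 (-1.64) and LDHA (-0.70). Over all genes 25.8% were called lower. The list median was -0.26 against 0.0042 over all genes. Of 23 tested estrogen-induced genes other than CA12, 7 were called higher and 1 lower with the block, with a median of 0.15. These are 34.8% of the list, where 9.56% of all genes were called and 6.13% were called higher. The gene called lower was CCND1, by -0.25 ± 0.076 (edgeR adjusted p of 0.0453). The lists were chosen with earlier results of these data known, so nothing is read from their shares with E2 or between the tags. Between the tags, 7 of the 23 were higher and 8 lower in B212 (65.2%, against 51.0% of all genes). Of the genes called higher with E2, PGR, the progesterone receptor, had 51.6 and 72.1 CPM in A4 and 5.62 and 15.6 CPM in B212. NRIP1, a corepressor of nuclear receptors, ran the other way between the tags, with 66.2 and 88.1 CPM in A4 and 89.1 and 117 CPM in B212.

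**Figure D5:**
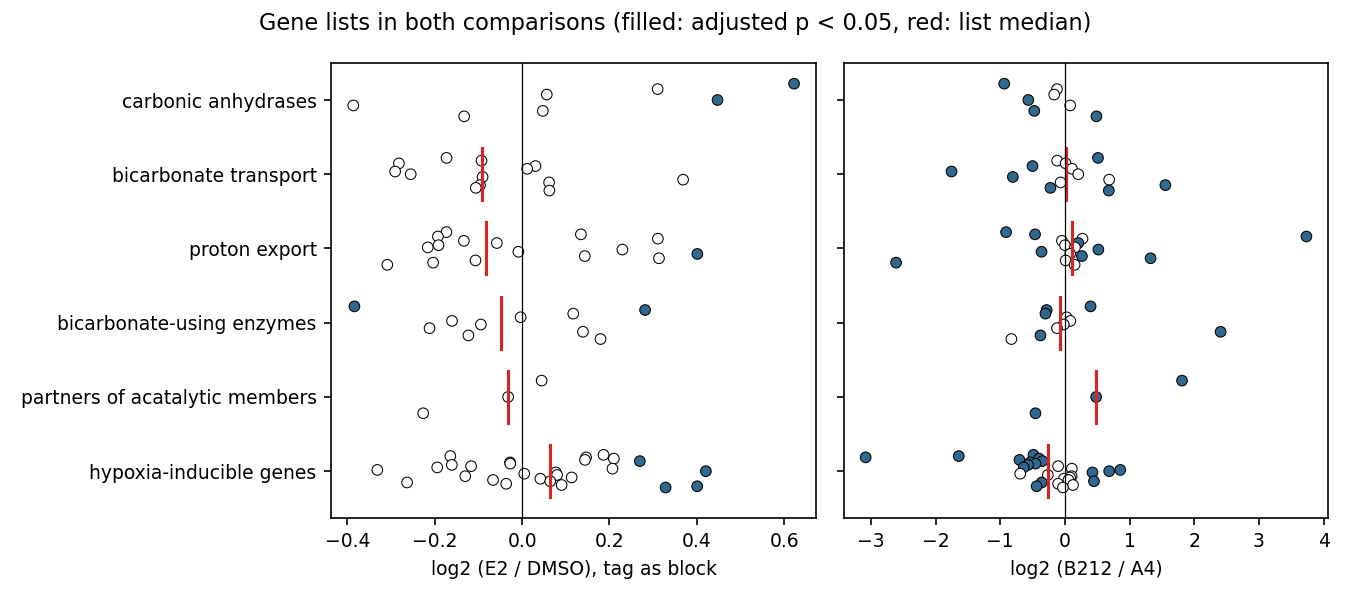
Log2 fold change of each tested gene by list, for E2 over DMSO with the tag as a block (left) and for B212 over A4 (right), with filled points at an edgeR adjusted p under 0.05 and red lines at list medians. On the left 2 carbonic anhydrases and 0 bicarbonate transporters are filled, where 9.56% of all genes were called. The carbonic anhydrases were chosen in part on this contrast, so the 2 counts are not compared.

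Likeness to each member was measured as the Euclidean distance between 4 centred log2 CPM values, over the 11928 genes that reached 100 counts in all libraries. Nearest to CA2 were SLC6A13 (distance 0.18) and FAM134B (0.24), where the median gene lay at 1.12. Nearest to CA12 were PRR22 (0.039) and SLC30A1 (0.13). Those for CA13 were SERP2 and RWDD3, for CA5B FEZ2 and RAB2B, for CA8 MRM1 and EIF1AD, and for CA11 UTRN and F2R, at 0.0051 to 0.055. With only 4 libraries many genes lie close to any pattern.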

How the data were processed

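The authors deposited raw counts per gene symbol. The submitters' processing notes name HISAT2, SAMtools, featureCounts and DESeq2 and the build hg19, with no versions. Libraries were poly(A)-selected with a stranded kit from 500 ng of RNA, per the labels' protocols. The annotation and strand setting are not given in the sources used here, so overlapping and antisense genes cannot be told apart. Another 4 columns matched no sample and were not used. Columns were grouped by the treatment in their names.

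Genes were filtered by filterByExpr (minimum count 10, 15599 genes kept), scaled with TMM factors and tested with edgeR 4.0.16 in R 4.3.3. E2 was compared without a block, and an alternative fit added the tag as a block, since the labels give each clone both treatments. Standard errors came from the fold change and the F statistic. Ratios of single libraries have exact 95% binomial intervals, for counting error only. Same-tag libraries deviated together (r = 0.871 across genes). Library pairs differed by more than sampling noise. CPM used TMM-scaled library sizes, with a prior count of 2 on the log2 scale. Lengths came from the longest coding GENCODE 29 transcript (93.5% of tested genes matched). DESeq2 1.42.0, limma 3.58.1, mgcv 1.9.3 and matplotlib 3.10.9 served alternatives and figures. Scripts were tested on simulated counts.

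Members and lists were chosen with earlier results of these data known. Named genes were the family, ESR1, at most 2 called genes per list and direction, and the 2 nearest genes of each member with at least 100 counts per library. Some genes that this rule names are not reported here. Neighbouring and overlapping genes were chosen after values were seen.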

Additional observations from a re-analysis of the deposited data

Results flagged for a closer look

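CA8 had E2 changes of opposite sign in the tags, with a log2 ratio of -0.031 in A4 and 0.13 in B212. The difference of 0.16 had a 95% counting interval of -0.086 to 0.41. It was not tested against replicates, since each tag had 1 library per treatment.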

How the results depend on the processing

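With no block, the count of 0 genes for E2 was the same under both other scalings, both filters, limma-voom and each library left out, and DESeq2 called 1 gene. The count of members called was 0 under each of these. With the tag as a replicate block edgeR called 1492 genes (956 higher and 536 lower) and 2 members. With the block, 608 genes were called with the length and GC trend removed, 717 with DESeq2 size factors, 562 with DESeq2 and, added after seeing the data, 1138 with limma-voom and 1686 (911 higher and 775 lower) with library size only. CA2 and CA12 were the 2 members called under each of these 5 block settings, with log2 fold changes of 0.48 to 0.62 (CA2) and 0.43 to 0.56 (CA12), but the contrast helped to choose the members, so this is no sign of stability. DESeq2 with the block gave 5 members no adjusted p. Removing the trend with the replicate block reversed CA8, to -0.010, for which the cause was not tested.

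Fits that left out a library with no block gave log2 fold changes of -0.037 to 0.14 (CA5B), -0.23 to 0.35 (CA8) and -0.41 to 0.16 (CA11), which changed sign, and of 0.084 to 1.18 (CA2) and 0.039 to 0.87 (CA12), which did not. Each such fit unbalances the tags and assumes that the lone library of a group varies like the others.

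Between the tags, 7950 genes (3927 higher and 4023 lower) became 4456 with no treatment term, 5538 with DESeq2, 7937 (4761 and 3176) with library size only and 8460 (3415 and 5045) with the trend removed. The 4 members called became 3 with DESeq2 (without CA11), 3 with no treatment term (without CA12) and 5 with the trend removed (with CA5B). Leaving out a library left no residual degrees of freedom and so gave values with no test. Those of CA12 ran from -0.82 to -0.33 and those of CA2 from -0.96 to -0.92. Low counts limited CA4, CA9 and CA14.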

Other observations

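In the RefSeq gene order, WWP1, the next tested gene after CA2, had an E2 log2 fold change of -0.046 with the tag as a block and a B212 over A4 value of -0.050. APH1B and USP3, on either side of CA12, had E2 values of 0.078 and 0.031 and tag values of -0.081 and -0.00023. None of these 3 genes was called in either comparison by edgeR. TOX, beside CA8, was lower in B212 by -0.39 (edgeR adjusted p of 0.00792), the direction of CA8, while LINC01301 on the other side was higher by 1.02 (edgeR adjusted p of 0.0242). DBP, beside CA11, was higher in B212 by 0.44 (edgeR adjusted p of 0.0326), the direction of CA11. NTN5, on the other side of CA11, had 11 to 16 counts and was not called, at -0.018. ARHGEF39 lies antisense over 38.5% of the exon bases of CA9, which had at most 4 counts in a library. The strand setting is unknown, and the effect of this overlap on the CA9 counts was not tested.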
